A study of Mus musculus with 7 samples.

Results

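The genes through which the heart takes up and uses glucose were followed in mouse myocardium after myocardial infarction (MI). They were chosen by name and role, with earlier results of these data known: 42 genes of glucose uptake, glycolysis, lactate and pyruvate handling, glycogen and the pentose phosphate pathway, of the 56980 genes in the deposited table. All 42 were found in it, and 36 passed the filter for testing, at least 1 FPKM in 3 or more mice. FPKM is the number of sequenced fragments on a gene scaled by its length and by the library's total. The other 6 (Slc2a3, Hk3, Aldoc, Pfkfb3, Pfkfb4 and Slc16a3) were too low and are given by their values. The mice were wild-type (WT) C57BL/6J males, of an inbred strain, bought at 8 weeks of age. The left coronary artery was ligated in 3 of them (the MI mice), and 4 went through the operation without ligation (the sham mice). Myocardial tissue was taken from the MI mice 4 days later and each mouse gave 1 library. The labels say neither how much of each piece was infarct, border or spared muscle nor on which day the sham tissue was taken.

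Glucose enters a cell through facilitative transporters, is trapped by hexokinase, and is split to pyruvate by the enzymes of glycolysis. Pyruvate either becomes lactate, which leaves through monocarboxylate transporters, or crosses into the mitochondrion and is burnt after the pyruvate dehydrogenase complex, a gate that pyruvate dehydrogenase kinases close. Many steps have several gene forms: the adult heart muscle cell mainly uses Slc2a4, Hk2, Pfkm, Pgam2, Eno3 and Ldhb, while forms such as Slc2a1, Hk1, Pfkp, Pgam1, Eno1 and Ldha are spread over most cell types. The healthy adult heart draws most of its energy from fatty acids, while a heart short of oxygen leans more on glycolysis.

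Estimated from the steps in the FPKM values, the libraries held 19977717 to 23610873 fragments. MI mouse 2 stood apart from the other MI mice. Across the 11431 genes tested, which are not independent replicates, its log2 values correlated with those of the sham mice at r = 0.984 to 0.987, while MI mouse 1 reached 0.878 to 0.881 and MI mouse 3 reached 0.903 to 0.906. Mitochondrial genes took 26.5% to 27.4% of the fragments in the sham mice, 28.2% in MI mouse 2, and 13.6% and 14.9% in MI mice 1 and 3. Tested differences are therefore also given without MI mouse 2. That mouse was singled out because its values resembled those of the sham mice, so lower p-values without it follow in part from the choice and are given as a description. Without it, 8195 of all genes passed an adjusted p of 0.05, against 3 with all mice, and 30 members did, while leaving out any other single mouse, MI mouse 1 or 3 included, left 0 members past that line. The cells of the tissue differed between the mice as well, and the plot of marker lists shows it. The 10 cardiomyocyte markers (Myh6, Tnnt2 and others), which define the labelled tissue, were present in every mouse and summed to 15766 to 17202 FPKM in the sham mice, against 10470.4, 15624 and 11399 in MI mice 1, 2 and 3, with 2 of 10 below the sham range in every MI mouse. The 8 macrophage markers summed to 199.6 to 253 FPKM against 1314, 240.2 and 1126, with 3 of 8 above the sham range in every MI mouse. The 7 fibroblast markers summed to 102 to 126 FPKM against 2305, 201 and 1758, with 6 of 7 above it. For the 6 endothelial markers the sums were 126 to 144 FPKM against 158, 119 and 170, with 1 of 6 below it in every MI mouse, and for the 5 smooth muscle and pericyte markers 207 to 246 against 317, 211 and 358. Low sums were seen for 6 neutrophil markers (0.3 to 1.29 FPKM against 13.8, 0.485 and 6.3, with Ly6g at 0 in every mouse) and for 8 skeletal muscle markers (0.717 to 1.14 against 3.23, 0.799 and 3.86, with 1 marker at 0 in every mouse). The 5 erythroid markers summed to 371 to 774 FPKM against 2389.8, 591 and 1014, the 5 adipocyte markers to 0.00701 to 0.244 against 14.5, 0.0406 and 48.4, and the 5 proliferation markers to 2.56 to 3.78 against 13.7, 2.89 and 11.6. MI mouse 2 was close to the sham mice, and MI mice 1 and 3 apart from them, in many of these lists and in many of the glucose genes. This joint pattern did not hold for Pdk4, Pdk1, Pkm, Gapdh, Hk1 or Tpi1, among others. The part of these lists in the results was not tested. In such bulk tissue, fewer cells of a type and less RNA per cell cannot be told apart.

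**Figure D1:**
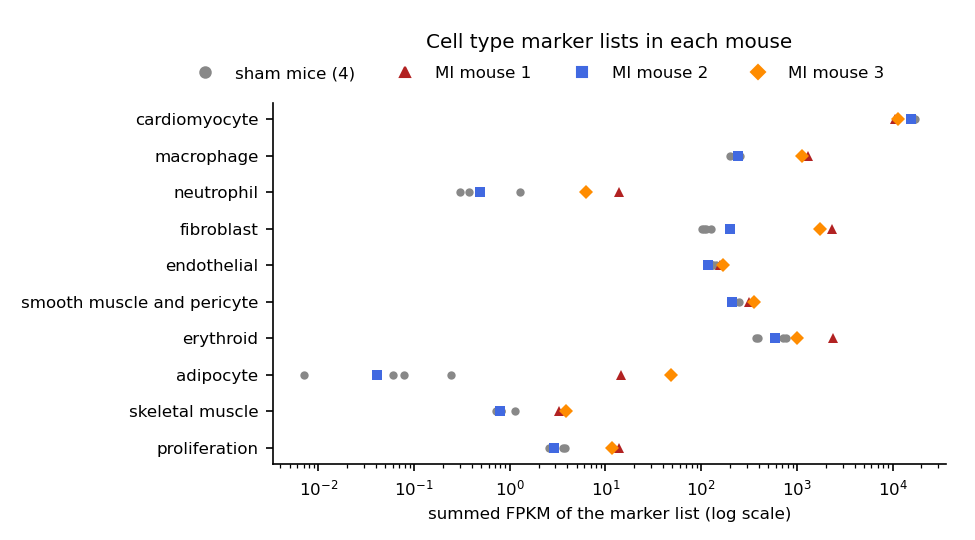
Summed FPKM of each cell type marker list (log scale) in the 4 sham mice and in each of the 3 MI mice, 1 point a mouse. MI mouse 2 lies among or next to the sham mice in most lists, while MI mice 1 and 3 sum to 1314 and 1126 FPKM for macrophage markers against at most 253 in the sham mice.

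In MI mice 1 and 3, all 4 pentose phosphate genes were above every sham mouse and muscle forms such as Slc2a4, Pfkm and Eno3 below, while MI mouse 2 mostly lay within or near the sham range. Of all genes tested, 61.9% were above every sham mouse in MI mice 1 and 3 and 16.9% below. No member passed an adjusted p of 0.05 (limma, Benjamini-Hochberg over all genes tested), a line that 0.0262% of all genes passed. At an unadjusted p under 0.05, 5 of 36 tested members were higher (29.5% of all genes were) and 15 were lower (9.85% of all genes were). The 5 were Slc2a1, Pfkp, G6pdx, Pgd and Tkt. Rescaled to TPM, which gives every library the same total, the split was 9 higher and 11 lower, beside 36.2% and 4.9% over all genes tested. Every MI mouse was above every sham mouse for 0 tested members, against 16.1% of all genes, and below for 7, against 9.0% of all genes. The 7 were Slc2a4, Pfkm, Aldoa, Pgam2, Ldhb, Mpc2 and Pdhb. After scaling to the median log-ratio of every mouse, 1 member (Slc2a1) was above (13.7% of all genes) and 7 below (13.5% of all genes). Only 5 of these 7 were shared with the first 7, since Slc2a4 and Aldoa then overlapped while Gapdh and Ldha no longer did. With quantile normalization Pfkm and Ldhb overlapped as well, and 3 of the first 7 were left.

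Since the median gene of the table was itself higher after MI, by 0.21 in log2 units, member differences are given below relative to it, while adjusted p-values belong to the unshifted log2 fold change. The median of the 36 members was -0.34 relative to the median gene, and 25 of them were below it and 11 above. The 6 members that the filter left out are not in these values, and each had a higher mean FPKM in the MI mice than in the sham mice. By role the medians ran from -0.72 for the 7 genes of pyruvate entry through -0.65 for the 2 tested genes of fructose-2,6-bisphosphate, -0.63 for lactate, -0.57 for glycogen, -0.37 for uptake, -0.20 for lower glycolysis and 0.02 for upper glycolysis to 0.58 for the 4 pentose phosphate genes. Without MI mouse 2, with 2 MI mice against 4 sham mice, 12 members rose and 18 fell at an adjusted p under 0.05, when 57.0% of all genes rose and 14.7% fell, and the median of the members was -0.50. The plot of all members by role shows how far each call turned on that mouse.

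**Figure D2:**
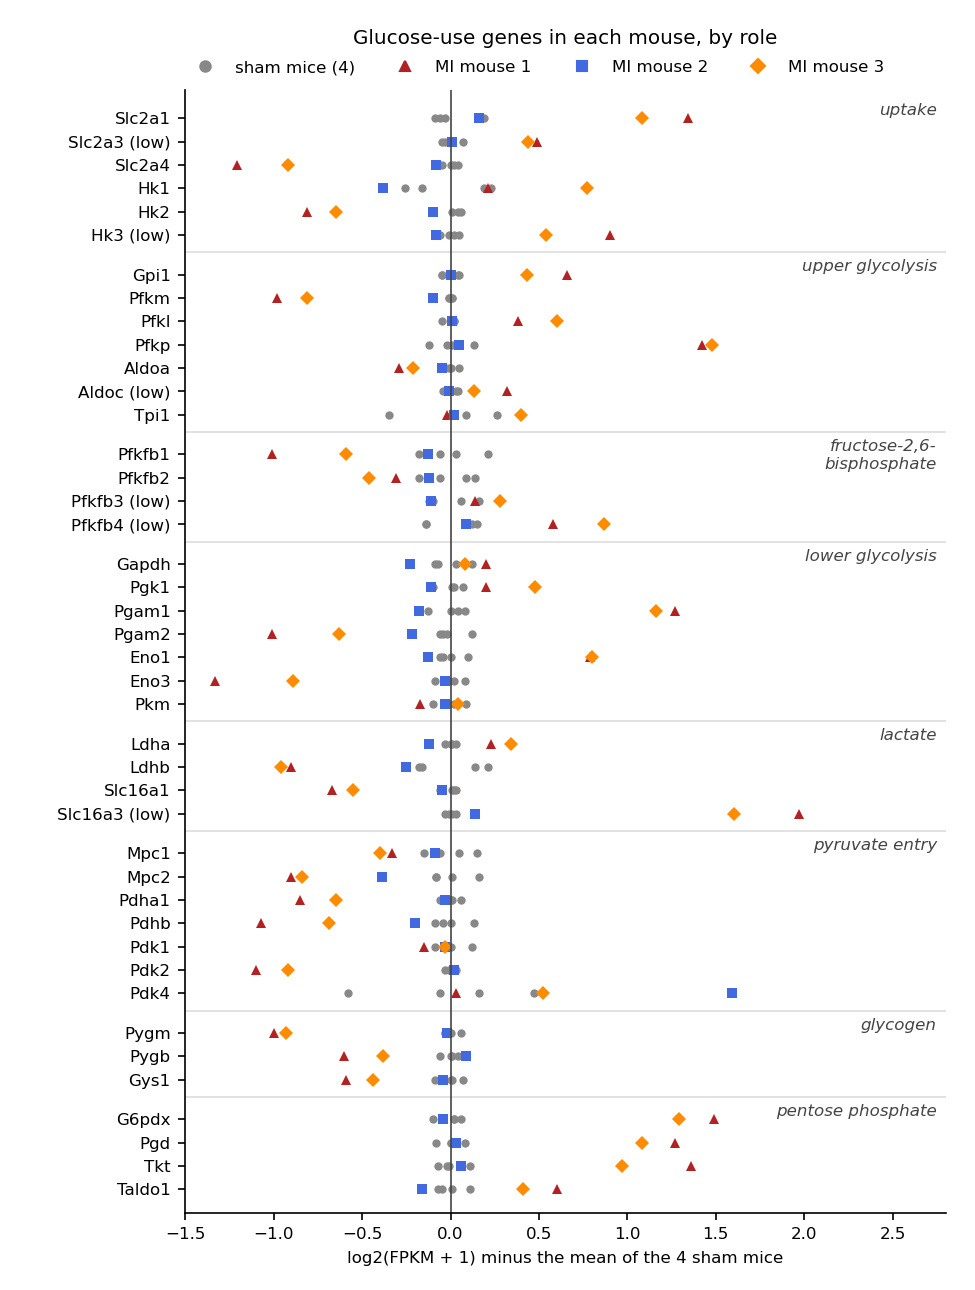
Each of the 42 members in rows, grouped by role, with log2(FPKM + 1) minus the mean of the 4 sham mice on the x axis and 1 point a mouse ("low" marks the 6 members that were not tested). MI mice 1 and 3 lie to the left for most genes of pyruvate entry and glycogen and to the right for the 4 pentose phosphate genes, while MI mouse 2 lies apart from the sham mice for Pdk4 (1.59) and Mpc2 (-0.39) and near them for most others.

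At the point of uptake, the insulin-responsive transporter Slc2a4 was below and the widespread transporter Slc2a1 above every sham mouse in MI mice 1 and 3. Slc2a4 (chr11:69942539-69948188, minus strand, mm10) measured 61.4, 65.5, 64.6 and 63.7 FPKM in sham mice 1 to 4 and 27.1, 60.4 and 33.2 FPKM in MI mice 1 to 3. The groups did not overlap, though MI mouse 2 lay just under the lowest sham mouse, and after median log-ratio scaling or quantile normalization they did overlap. Its log2 fold change was -0.74 ± 0.25 (SE), or -0.95 relative to the median gene, with an adjusted p of 0.108 (limma). Without MI mouse 2 it fell by 1.39 relative to the median gene, with an adjusted p of 5.22e-05. Such p-values, here and below, come from 2 MI mice and belong to the unshifted change. Of all genes tested, 71.7% then passed 0.05.

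Slc2a1 (chr4:119108711-119137983, plus strand) measured 2.56, 2.63, 3.23 and 2.48 FPKM in the sham mice and 8.41, 3.14 and 6.83 FPKM in the MI mice. MI mouse 2 was inside the sham range and the other MI mice were well above it. Its difference was 0.65 relative to the median gene, with an adjusted p of 0.108, and 0.88 without MI mouse 2, with an adjusted p of 8.47e-05. Slc2a4 thus made up 95% to 95.9% of the summed FPKM of Slc2a1, Slc2a3 and Slc2a4 in the sham mice and 74.8%, 94.7% and 81.6% in MI mice 1, 2 and 3. Slc2a3, a high-affinity transporter best known from neurons and white blood cells, stayed under 1 FPKM in every mouse, at 0.181 to 0.28 in the sham mice and 0.719, 0.226 and 0.659 in the MI mice.

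Of the hexokinases, Hk2, the main form of adult muscle, measured 61.5, 66.5, 69.2 and 67.9 FPKM in the sham mice and 37.3, 61.6 and 41.7 FPKM in the MI mice, overlapping only through sham mouse 1 and MI mouse 2. Its difference was -0.73 relative to the median gene, with an adjusted p of 0.108, and -1.06 without MI mouse 2, with an adjusted p of 0.000143. Hk1, the form of most tissues, measured 16.0, 11.5, 16.5 and 12.4 FPKM against 16.3, 10.5 and 24.5 and did not move together in the MI mice. Its difference of -0.01 relative to the median gene turned positive in 7 of the alternatives, quantile normalization and the fit without MI mouse 2 (0.17) among them. Hk3, a form of white blood cells, was at 0.174 to 0.272 FPKM in the sham mice and at 1.28, 0.159 and 0.784 in the MI mice.

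In upper glycolysis the 3 phosphofructokinase genes, which carry the committed step, had unlike values by form. Pfkm, the muscle form (chr15:98092589-98132451, plus strand), was very even in the sham mice at 247, 249.6, 251 and 247 FPKM, and measured 126, 232 and 141 FPKM in the MI mice, all of them lower. The difference was -0.84 relative to the median gene, with an adjusted p of 0.108, and -1.22 without MI mouse 2, with an adjusted p of 2.96e-05. Pfkl, the liver form, measured 18.1, 18.9, 19.1 and 19.1 FPKM against 24.8, 19.0 and 29.0, and Pfkp, the platelet form, 4.3, 3.78, 3.88 and 3.46 against 12, 4.0 and 12.5. For both, MI mouse 2 was inside the sham range and the other MI mice were above it. Relative to the median gene Pfkl differed by 0.12 and Pfkp by 0.77 (adjusted p 0.128 and 0.108). Without MI mouse 2 these were 0.16 and 1.12, with adjusted p of 0.000885 and 1.15e-05 for the unshifted log2 fold changes. Pfkm made up 91.6% to 91.7% of the summed FPKM of the 3 genes in the sham mice, and 77.4%, 91.0% and 77.3% in the MI mice.

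The rest of upper glycolysis holds the aldolases and 2 isomerases. Aldoa, the aldolase of muscle, measured 307, 301, 306 and 318 FPKM in the sham mice and 252, 297 and 266 in the MI mice, without overlap in FPKM but overlapping in TPM, after median log-ratio scaling and after quantile normalization. Its difference of -0.39 relative to the median gene had an adjusted p of 0.228 and was -0.57 without MI mouse 2 (adjusted p 0.00522). Aldoc, the aldolase of brain, measured 0.0161, 0.0499, 0.0614 and 0 FPKM against 0.29, 0.0239 and 0.13, low in every mouse. Gpi1, which turns glucose-6-phosphate into fructose-6-phosphate, ranged from 40.0 to 43.1 FPKM in the sham mice and from 41.5 to 66.2 in the MI mice (0.16 relative to the median gene, adjusted p 0.13), and Tpi1, the triose isomerase, from 52.9 to 81.3 and from 67.0 to 90.0. Without MI mouse 2 Gpi1 differed by 0.22 (adjusted p 0.000774 for the unshifted log2 fold change). The direction of Tpi1 relative to the median gene (-0.08) changed without the filter on low genes and with sample weights, and it was -0.14 without MI mouse 2 (adjusted p 0.38).

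Fructose-2,6-bisphosphate, the strongest activator of phosphofructokinase, is made and broken down by the Pfkfb enzymes. Pfkfb2, the heart form, measured 5.0, 4.4, 5.21 and 3.98 FPKM in the sham mice and 3.53, 4.17 and 3.08 in the MI mice. The groups overlapped only through MI mouse 2, and the difference was -0.51 relative to the median gene (adjusted p 0.122), or -0.71 without that mouse (adjusted p 0.0126). Pfkfb1, the liver and muscle form, ranged from 1.88 to 2.79 FPKM against 0.629 to 1.99, a difference of -0.79 relative to the median gene (adjusted p 0.109), or -1.13 without MI mouse 2 (adjusted p 0.00236). Pfkfb3, the inducible form, measured 0.788, 0.676, 0.494 and 0.477 FPKM against 0.773, 0.484 and 0.944 and was not separated by group. Pfkfb4 was at 0.286 to 0.573 FPKM in the sham mice and at 1.11, 0.506 and 1.58 in the MI mice.

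In lower glycolysis the muscle forms of mutase and enolase stood among the most abundant members in sham hearts, and both were below every sham mouse in MI mice 1 and 3. Pgam2, the phosphoglycerate mutase of muscle (chr11:5801640-5803733, minus strand), had the highest listed sham mean of all members. That rank depends on the lengths behind the FPKM values, 840 bases for Pgam2 as in GENCODE, but 5841 against 2911 for Aldoa. It measured 535, 486, 472 and 479 FPKM in the sham mice and 244, 424 and 318 FPKM in the MI mice, with no overlap. Its difference was -0.83 relative to the median gene (adjusted p 0.108) and -1.15 without MI mouse 2 (adjusted p 0.000557). Pgam1, the widespread form, measured 17.9, 16.9, 15.3 and 17.4 FPKM against 41.9, 14.7 and 38.8, with MI mouse 2 just below the whole sham group and the other MI mice far above it. Its difference was 0.54 relative to the median gene (adjusted p 0.135) and 0.89 without MI mouse 2 (adjusted p 2.03e-05).

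Eno3, the enolase of muscle (chr11:70657202-70662513, plus strand), measured 335, 315, 355 and 342 FPKM in the sham mice and 133, 329.7 and 181 FPKM in the MI mice. MI mouse 2 lay inside the sham range and MI mice 1 and 3 were at 39.5% and 53.7% of the sham mean. The difference of -0.96 relative to the median gene was the most negative of the tested members with all mice included and had an adjusted p of 0.113. It was -1.44 without MI mouse 2, with an adjusted p of 0.000196. Eno1, the widespread enolase, measured 9.5, 9.23, 9.05 and 10.3 FPKM against 17.2, 8.59 and 17.3, a difference of 0.28 relative to the median gene (adjusted p 0.147) and of 0.47 without MI mouse 2 (adjusted p 5.76e-05).

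Pgk1, which makes the first ATP of the pathway, ranged from 70.5 to 79.9 FPKM in the sham mice and from 70.3 to 106 in the MI mice. Pkm, the pyruvate kinase of muscle and most other tissues, ranged from 132 to 150.4 FPKM against 126 to 146. Both overlapped between the groups, though for Pgk1 MI mice 1 and 3, at 87.1 and 106 FPKM, were above every sham mouse. Pgk1 differed by -0.02 relative to the median gene, a sign that turned under quantile normalization and without MI mouse 2 (0.01), where its unshifted log2 fold change had an adjusted p of 0.0135. Pkm differed by -0.26, or by -0.39 without that mouse (adjusted p 0.495 for the unshifted log2 fold change). Gm49759, on the same strand, overlaps 15.3% of the exon bases of Pkm and was listed at 5.32 to 11.2 FPKM. The table does not divide Pkm into its spliced forms.

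Gapdh, often used as a reference gene, was listed at only 5.44 to 7.71 FPKM over the 7 mice, from an estimated 1063 to 1464 fragments, and its values overlapped between groups (-0.20 relative to the median gene, and -0.19 without MI mouse 2). Sequences with at least 95% identity over at least 50% of its coding sequence were found in 74 other annotated genes, and these held 96.8% to 97.8% of the fragments of Gapdh and its copies together. The copies summed to 1998 to 2182 FPKM in the sham mice and to 1976, 2038 and 2335 FPKM in the MI mice, again without separation of the groups. Its own value is therefore uncertain, and so are those of the other 10 members with such copies. For Mpc1 the copy Mpc1-ps held 71.2% to 77.5% of the fragments, for Eno1 the 3 copies held 52.5% to 59.0%, for Pgk1 the 2 copies held 41.9% to 44.0% and for Pgam1 the copy Pgam1-ps2 held 31.2% to 39.4%. The Pgam1 copy went with its parent, at 14.4 to 19.3 FPKM in the sham mice and 44.5, 15.0 and 35.4 in the MI mice, and so did the Eno1 copies, at 52.7 to 57.8 against 125, 56.3 and 124. In the remaining 6 members the copies held at most 13.3% of the fragments. The copies of Ldhb and Pdhb overlapped between the groups, at 114 to 127 FPKM against 51.7, 118 and 64.9 for Ldhb and at 22.5 to 30.8 against 12.1, 27.5 and 17.1 for Pdhb.

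Lactate dehydrogenase is built from a heart chain, Ldhb, and a muscle chain, Ldha. Ldhb (chr6:142490249-142507957, minus strand) measured 345, 350.2, 452 and 430.3 FPKM in the sham mice and 209, 329.5 and 201 in the MI mice, with no overlap and with MI mouse 2 next to the lowest sham mouse. The difference was -0.91 relative to the median gene (adjusted p 0.108) and -1.26 without MI mouse 2 (adjusted p 0.000521). Ldha measured 68.0, 67.7, 68.9 and 66.2 FPKM in the sham mice and 79.6, 62.1 and 86.0 in the MI mice. It lay 0.06 below the median gene, where the sign changed without the filter on low genes and with sample weights, and without MI mouse 2 the unshifted log2 fold change had an adjusted p of 0.00329. Ldhb made up 83.5% to 86.8% of the summed FPKM of both chains in the sham mice and 72.4%, 84.2% and 70.1% in the MI mice.

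Lactate crosses the cell membrane through 2 carriers among the members. Slc16a1, which carries lactate into and out of heart muscle cells, measured 69.3, 69.1, 68.7 and 65.0 FPKM in the sham mice and 42.5, 65.7 and 46.0 in the MI mice. It overlapped only through sham mouse 4 and MI mouse 2, and differed by -0.63 relative to the median gene (adjusted p 0.111), or by -0.94 without MI mouse 2 (adjusted p 0.000129). Slc16a3, the lactate exporter of strongly glycolytic cells (chr11:120948480-120960868, plus strand), measured 0.224, 0.237, 0.253 and 0.269 FPKM in the sham mice and 3.89, 0.374 and 2.78 FPKM in the MI mice. Every MI mouse was above every sham mouse, and the estimated fragments were 44 to 52 a library in the sham mice and 742, 74 and 575 in the MI mice. The ratio of group means was 9.56. With an FPKM of at least 1 in only 2 mice it was not tested in the main fit. With no filter its log2 fold change was 1.24 ± 0.41 (SE), with an adjusted p of 0.188.

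The change of form within a step was compared directly as the log2 ratio of paired genes in the same mouse, with 1 added to each FPKM. Scaling between libraries moves such a ratio little where both genes are well above 1 FPKM. It moves the ratio more where a gene is low, as Slc16a3, Aldoc and Pfkfb3 were. The ratios were not recomputed with other scalings. Of 12 pairs, 11 had a higher mean ratio of the first-named form to the form of the sham heart in the MI mice, and in 5 every MI mouse was above every sham mouse. No share over other gene pairs was computed. Of all single genes tested, 61.9% were above every sham mouse in MI mice 1 and 3 and 16.9% below. The pairs were chosen with earlier results of these data known, and Pfkm stands in both phosphofructokinase pairs. Among the 5 pairs without overlap, the widest shift was Slc16a3 to Slc16a1, which differed by 1.66 on the log2 scale. It was followed by Pfkp to Pfkm (1.61), Slc2a1 to Slc2a4 (1.60), Pfkl to Pfkm (0.96) and Pygb to Pygm (0.35). With a pseudocount of 0.1 in place of 1 the first 3 were 2.78, 1.75 and 1.79, so the sizes, and the order of the last of these, depend on it. Each of these 5 had an exact two-sided permutation p of 0.0571, the smallest that 3 against 4 mice allow, and an adjusted p over the 12 pairs of 0.137. The test could thus not reach 0.05 for any pair.

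In these 5 pairs MI mouse 2 lay just above the sham mice, and for Pfkp to Pfkm it no longer did with a pseudocount of 0.1 (exact permutation p 0.114). Its log2 ratio of Slc2a1 to Slc2a4 was -3.89, against -4.22 to -3.96 in the sham mice and -1.58 and -2.13 in MI mice 1 and 3. For Pfkp to Pfkm it was -5.54 against at most -5.55 in the sham mice. Overlap was seen for Pgam1 to Pgam2 (1.37, exact permutation p 0.114), Eno1 to Eno3 (1.24, 0.229), Ldha to Ldhb (0.85, 0.171), Hk1 to Hk2 (0.73, 0.286), Pfkfb3 to Pfkfb2 (0.40, 0.229) and Aldoc to Aldoa (0.33, 0.171, and a difference of 0.97 with a pseudocount of 0.1). The Eno1 and Pgam1 ratios leave out the fragments on their copies, 52.5% to 59.0% and 31.2% to 39.4% of the total. Without MI mouse 2 the differences of these 11 pairs ranged from 0.48 for Aldoc to Aldoa and for Pygb to Pygm up to 2.40 for Slc16a3 to Slc16a1. The exception was Pdk1 to Pdk4, at -0.78 (exact permutation p 0.171) and at -0.36 without MI mouse 2.

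**Figure D3:**
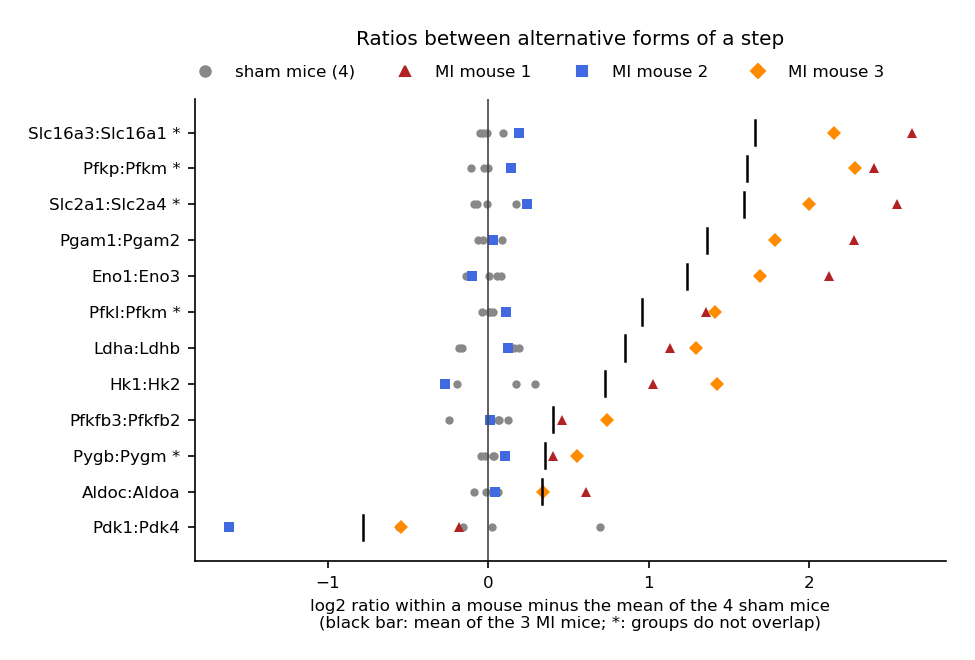
Log2 ratio of 2 forms of a step within each mouse, minus the mean of the 4 sham mice, for 12 pairs; points are mice, the black bar is the mean of the 3 MI mice and an asterisk marks the 5 pairs whose groups do not overlap. MI mice 1 and 3 lie to the right of all sham mice in 11 pairs, and MI mouse 2 lies close to the sham mice except for Pdk1 to Pdk4.

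**Figure D4:**
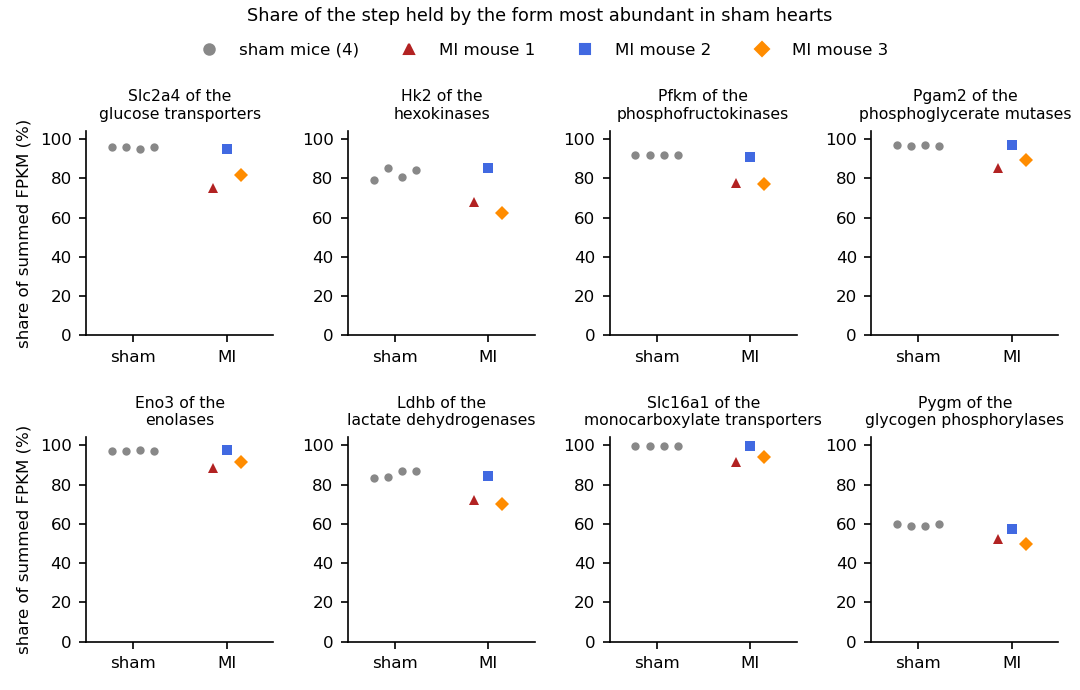
Share of the summed FPKM of a step held by the form most abundant in sham hearts (percent, y axis from 0), 1 point a mouse, for 8 steps. Pfkm holds 91.6% to 91.7% of the phosphofructokinases in the sham mice and 77.4%, 91.0% and 77.3% in MI mice 1, 2 and 3, and it stays the most abundant form in every mouse. The shares leave out fragments on near-identical copies, which held 52.5% to 59.0% for Eno1 and 31.2% to 39.4% for Pgam1.

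Glycolytic genes are textbook targets of the hypoxia-inducible factors, whose binding sites share the short core ACGTG, read CACGT on the other strand. The 250 bases upstream of the annotated starts in RefSeq (GRCm38.p6) were searched for these letters on both strands, with CACGTG counting as both. They were present in 17 of the 40 members in the table (42.5%), against 18.5% of all 27025 genes there. By start, 21 of 61 member promoters held them, against 16.6% of all promoters. Members and all genes were not matched for expression or base composition, and the difference was not tested. The stretches below were chosen to show that members of both directions carry the core, with the core in capitals and each sequence written in the direction of the gene. They lie at chr4:119108689-119108733 (plus) for Slc2a1, chr19:41911737-41911781 (plus) for Pgam1, chr11:120949033-120949066 (plus) for Slc16a3 and chr7:46845750-46845794 (plus) for Ldha, whose values were higher in MI mice 1 and 3. Those of genes with lower values there lie at chr6:82774482-82774526 (minus) for Hk2, chr15:98092433-98092478 (plus) for Pfkm, chr3:104638444-104638489 (plus) for Slc16a1 and chr19:6384327-6384371 (plus) for Pygm.
Slc2a1: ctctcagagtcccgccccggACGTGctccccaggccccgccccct
Pgam1: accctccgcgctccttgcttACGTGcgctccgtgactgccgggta
Slc16a3: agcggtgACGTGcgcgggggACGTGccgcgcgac
Ldha: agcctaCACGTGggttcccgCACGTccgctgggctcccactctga
Hk2: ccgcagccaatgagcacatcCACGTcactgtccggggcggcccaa
Pfkm: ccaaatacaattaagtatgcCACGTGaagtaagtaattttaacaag
Slc16a1: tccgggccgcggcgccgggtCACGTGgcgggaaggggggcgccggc
Pygm: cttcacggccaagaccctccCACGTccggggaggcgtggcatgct
Slc16a3 holds the core at 2 places in these 34 bases, the nearer one beginning 14 bases before its RefSeq start. Counted with CACGTG as 2, Ldha has the letters 5 times in 250 bases, 3 of them in the stretch shown. Slc2a1 has them once, 36 bases before its RefSeq start. The gene positions given above are those of GENCODE, whose starts can differ. The RefSeq starts used here lie 34 bases inside the GENCODE gene for Slc2a1, 587 for Slc16a3 and 4329 for Ldha, and 23 bases of the Slc2a1 stretch and 14 of the Slc16a3 stretch are in a GENCODE exon. They were also present upstream of genes that were lower, as in the CACGTG of Pfkm and of Slc16a1. A site for MEF2, a muscle transcription factor, was matched by its general A/T-rich form in 2 members (Pgam2 and Pfkfb1) and in 3.42% of all genes. A match is a description of the letters and not a bound site, and none of these windows was measured here.

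At the entry of pyruvate into the mitochondrion, Mpc2 and Pdhb were below every sham mouse in all 3 MI mice, and the other carrier and dehydrogenase genes, Mpc1 and Pdha1, overlapped. Mpc2, a chain of the mitochondrial pyruvate carrier (chr1:165460637-165481214, plus strand), measured 32.6, 29.3, 27.4 and 27.4 FPKM in the sham mice and 15.1, 21.9 and 15.8 in the MI mice. Here MI mouse 2 also lay clearly under the sham mice, at 75.1% of their mean, and MI mice 1 and 3 were at 51.8% and 54.2%. The log2 fold change was -0.71 ± 0.15 (SE), or -0.92 relative to the median gene, with an adjusted p of 0.108, and it was -1.20 without MI mouse 2 (adjusted p 0.00011). Its partner chain Mpc1 ranged from 9.89 to 12.4 FPKM against 8.13 to 10.3, a difference of -0.48 relative to the median gene (adjusted p 0.128), or -0.69 without MI mouse 2 (adjusted p 0.00862). Most fragments of that sequence were on the copy Mpc1-ps, at 407 to 459 FPKM in the sham mice and 263, 423 and 345 in the MI mice.

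Pdhb, a chain of the first enzyme of pyruvate dehydrogenase (chr14:8165996-8173025, minus strand), measured 91.2, 78.0, 82.8 and 80.5 FPKM in the sham mice and 39.0, 71.9 and 51.0 in the MI mice, without overlap. Its difference was -0.87 relative to the median gene (adjusted p 0.108) and -1.21 without MI mouse 2 (adjusted p 0.000467). Pdha1, the other chain and the one the kinases phosphorylate, ranged from 297 to 322 FPKM in the sham mice and from 171 to 304 in the MI mice, a difference of -0.72 relative to the median gene (adjusted p 0.115), or -1.08 without MI mouse 2 (adjusted p 0.000111).

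The kinases differed among themselves. Pdk4, which fasting and fatty acids induce, measured 58.4, 68.0, 40.4 and 84.8 FPKM in the sham mice and 61.9, 185 and 87.8 in the MI mice. It was the member in which MI mouse 2 stood out most, at 294% of the sham mean, while MI mice 1 and 3 were at 98.4% and 139.6%. Its difference of 0.50 relative to the median gene (adjusted p 0.193) rested on that mouse, and was -0.05 without it. Pdk1, which hypoxia induces, measured 15.3, 15.7, 17.2 and 14.7 FPKM against 14, 15.4 and 15.4 and was not separated by group (-0.28 relative to the median gene, and -0.42 without MI mouse 2). Pdk2, the form found in most tissues, ranged from 108 to 113 FPKM in the sham mice and was at 50.9, 112 and 58.2 in the MI mice, a difference of -0.88 relative to the median gene (adjusted p 0.114) and -1.34 without MI mouse 2 (adjusted p 2.6e-05).

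Within the summed FPKM of Pdk1, Pdk2 and Pdk4, the share of Pdk4 was 31.9%, 34.6%, 23.8% and 40.9% in the sham mice and 48.8%, 59.2% and 54.4% in the MI mice. The groups did not overlap in this share. In MI mouse 2 it went with a high Pdk4 and in MI mouse 1 with a low Pdk2. MI mouse 3 had both a low Pdk2 and a Pdk4, at 87.8 FPKM, just above the highest sham mouse at 84.8. It was singled out after its values were seen and is given with no test.

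**Figure D5:**
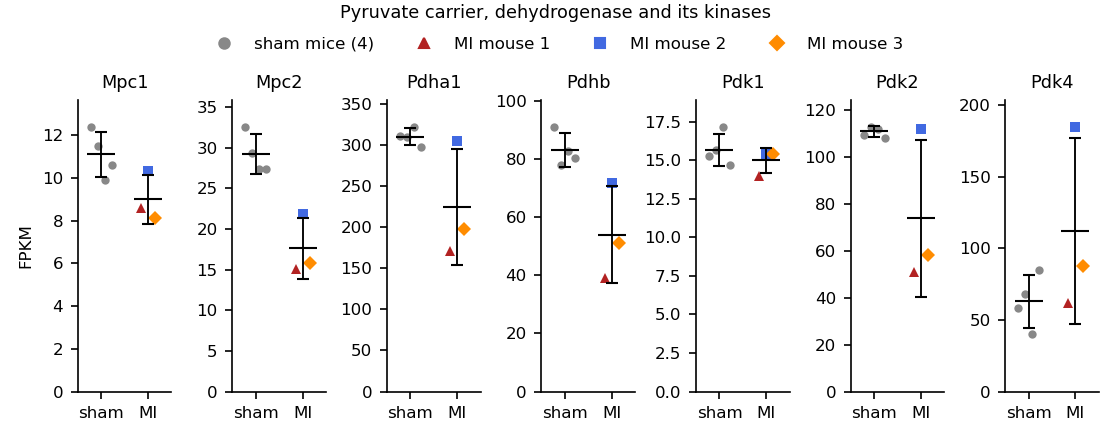
FPKM of the pyruvate carrier genes, the pyruvate dehydrogenase chains and 3 of its kinases, 1 point a mouse, with the mean and SD of the 4 sham and 3 MI mice in black and each y axis starting at 0. For Mpc2 the MI mice are at 15.1, 21.9 and 15.8 against at least 27.4 in the sham mice, and for Pdk4 only MI mouse 2, at 185, lies far above the rest.

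Glycogen, the store of glucose in the muscle cell, is broken down by glycogen phosphorylase. Pygm, the muscle form, measured 267, 268, 274 and 285 FPKM in the sham mice and 136, 269 and 143 in the MI mice, so that MI mouse 2 lay inside the sham range and the others near 50% of the sham mean, at 49.7% and 52.3%. Its difference was -0.86 relative to the median gene (adjusted p 0.11), and -1.30 without MI mouse 2 (adjusted p 1.51e-05). Pygb, the brain form, measured 179.8, 188, 193 and 189 FPKM against 123, 199 and 144, a smaller difference of -0.51 (adjusted p 0.201), or -0.82 without MI mouse 2 (adjusted p 0.000943). Pygm held 58.7% to 60.1% of the summed FPKM of both in the sham mice and 52.4%, 57.6% and 49.8% in MI mice 1, 2 and 3. Gys1, the synthase of muscle glycogen, ranged from 17.5 to 19.7 FPKM in the sham mice and was at 12.1, 18.1 and 13.5 in the MI mice, a difference of -0.57 relative to the median gene (adjusted p 0.115), or -0.84 without MI mouse 2 (adjusted p 0.000607).

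The pentose phosphate pathway branches off from glucose-6-phosphate and gives NADPH and ribose. Its 4 members all lay above the median gene, and their FPKM was higher in MI mice 1 and 3 than in every sham mouse, as it was for 61.9% of all genes tested. G6pdx, the entry enzyme (chrX:74409483-74429194, minus strand), ranged from 1.66 to 1.98 FPKM in the sham mice and was at 7.02, 1.77 and 5.96 in the MI mice. Its difference was 0.71 relative to the median gene, with an adjusted p of 0.112, and 1.07 without MI mouse 2 (adjusted p 1.59e-05). Ikbkg, on the other strand, overlaps 13.6% of the exon bases of G6pdx and was listed at 0.951 to 1.68 FPKM. The next oxidative enzyme, Pgd, was at 3.97 to 4.55 FPKM against 11.7, 4.35 and 10.1, and the transketolase Tkt at 2.47 to 2.93 against 8.35, 2.81 and 6.15. MI mouse 2 was inside the sham range for all 3 of these genes. Pgd differed by 0.58 relative to the median gene (adjusted p 0.109), or by 0.85 without that mouse (adjusted p 2.41e-05), and Tkt by 0.59 (adjusted p 0.109), or by 0.84 (adjusted p 0.000118). Taldo1, the transaldolase, was at 21.5 to 24.5 FPKM against 34.7, 20.1 and 30.3. Its difference of 0.07 relative to the median gene was 0.18 without MI mouse 2 but turned to -0.02 without MI mouse 1. The adjusted p of 0.00122 (limma) without MI mouse 2 belongs to the unshifted log2 fold change. In MI mice 1, 2 and 3 the G6pdx level was 379%, 95.5% and 322% of the sham mean, beside 578%, 106% and 496% for the summed macrophage markers. Proliferation markers were at 427%, 90.2% and 362% and fibroblast markers at 2063%, 179.9% and 1573%, while cardiomyocyte markers were at 62.9%, 93.9% and 68.5%. The part of any of these lists in the G6pdx level was not tested.

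The muscle forms can be set beside the cardiomyocyte markers in the same way. The summed cardiomyocyte markers were at 62.9%, 93.9% and 68.5% of the sham mean in MI mice 1, 2 and 3. Slc2a4 was at 42.5%, 94.7% and 52.0%, Pfkm at 50.7%, 93.3% and 56.7%, Pygm at 49.7%, 98.4% and 52.3% and Pdk2 at 46.0%, 101% and 52.6%. These 4 genes, picked after their values were seen, were lower than the marker sum in MI mice 1 and 3, while Aldoa (81.8% and 86.4%) and Gys1 (64.8% and 72.3%) were higher. The sum is led by Actc1 and Myh6. Single markers ranged from a difference of -0.40 relative to the median gene for Actc1 to -1.14 for Tnni3, and their median of -0.85 lay beside -0.84 for Pfkm, -0.86 for Pygm and -0.88 for Pdk2. No difference between members and markers was tested.

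Among 69 further genes of glucose pathways that are not members, 44 passed the filter. None passed an adjusted p of 0.05, while 7 were higher and 16 lower at an unadjusted p under 0.05, beside 29.5% and 9.85% of all genes. All MI mice lay above the sham range for 4 of the 44 and below for 11, beside 16.1% and 9.0% of all genes. Without MI mouse 2, 13 rose and 22 fell at an adjusted p under 0.05, beside 57.0% and 14.7% of all genes. With all mice, their median was -0.31 relative to the median gene. The 8 tested genes of lactate and pyruvate handling had the lowest median, -0.80, with 6 of them below without overlap. Named by size among the genes without overlap, the first was Gfpt2, the entry enzyme of the hexosamine pathway, which measured 2.58, 2.84, 2.21 and 3.17 FPKM in the sham mice and 15.4, 3.61 and 12.2 in the MI mice. Its difference was 1.23 relative to the median gene (adjusted p 0.108), or 1.68 without MI mouse 2 (adjusted p 2.2e-05).

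The next 3 were further chains of the pyruvate dehydrogenase complex. Dld, its last enzyme, ranged from 111 to 122 FPKM in the sham mice and was at 59.4, 105 and 64.8 in the MI mice. Pdhx, its binding protein, was at 32.0 to 36.1 FPKM against 16.9, 29.3 and 21.0, and Dlat, its middle enzyme, at 83.1 to 89.6 against 43.9, 78.0 and 50.5. Relative to the median gene these differed by -0.86, -0.84 and -0.82 (adjusted p 0.108 each), and by -1.22, -1.16 and -1.18 without MI mouse 2. In each of them MI mouse 2 also lay below every sham mouse, as it did for Pdhb. The fifth was Ldhd, a mitochondrial dehydrogenase of D-lactate, at 5.57 to 6.23 FPKM against 2.91, 5.42 and 2.9, a difference of -0.80 (adjusted p 0.108), or -1.15 without MI mouse 2 (adjusted p 3.67e-05).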

How the data were processed

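Myocardial RNA of 4 sham and 3 MI mice was sequenced, 1 library from each mouse, with groups as the sample labels state them. For 56980 genes by Ensembl identifier, the authors deposited FPKM values (0 columns left unused). The submitters' processing notes name CASAVA 1.8, HISAT2, SAMtools 1.3.1, edgeR and the build mm10, without roles. The annotation, the counting and its use of strand are not given in the sources used here.

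GENCODE M21 (GRCm38) gave symbols for 52073 identifiers (91.4%) and the positions. Fragments were estimated from the whole steps of the FPKM values (30503 of 30504 genes above 0, tolerance 0.05), and lengths behind them often exceeded GENCODE exons (8626 against 4133 bases for Gapdh), so levels between genes depend on them. An upstream gene that GENCODE also names Aldoa (at most 0.488 FPKM) was left out.

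Values were tested as log2(FPKM + 1), so fold changes of low genes are understated, with limma 3.58.1 (lmFit, eBayes with trend) in R 4.3.3, without covariates, over the 11431 genes that reached 1 FPKM in 3 or more mice. Adjustment followed Benjamini and Hochberg at 0.05. Ratios of 12 pairs used exact two-sided permutation tests over 35 assignments. The fits were tested on simulated data. Copies were sought with BLAST 2.17.0, and the remaining work was done in Python 3.11.15 with NumPy 2.4.6, pandas 2.3.3, numba 0.67.0, matplotlib 3.10.9 and SciPy 1.17.1. Counting error is included in the SD over mice.

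The members, lists, pairs and tests were chosen with earlier results of these data known. Values in every mouse are given for members of a pair or without overlap and at least 0.5 from the median gene on the log2 scale, ranges for the others, and of further pathway genes the 5 with the largest difference without overlap. The settings tried besides were a filter on the mean or none, a pseudocount of 0.1, TPM, median log-ratio scaling, quantile normalization, no trend, sample weights, a replicate block and each mouse left out.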

Additional observations from a re-analysis of the deposited data

Results flagged for a closer look

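Slc16a1, the main lactate carrier of the heart muscle cell, had 1 sham mouse away from the others: sham mouse 4 was the lowest at 65.0 FPKM, and its gap to the next mouse was 0.871 of the range of the group. That was the only such gap among 54 sets of sham values, where chance gives about 2.7.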

How the results depend on the processing

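All alternatives were planned. Of 576 member differences recomputed, 497 kept their direction and side of the threshold, 58 passed it in addition and 21 changed sign. The genes that passed the adjusted threshold, 3 in all, were 6 with a pseudocount of 0.1, 21 without a filter, 15 with median log-ratio scaling, 15 with quantile normalization, 0 with a filter on the mean and 9952 with sample weights. Members that passed it were 33 with sample weights (91.7% of those tested, when 87.1% of all genes passed) and otherwise 0, and 0 to 30 with 1 mouse left out, the highest without MI replicate 2 (83.3%, beside 71.7% of all genes). Members higher at an unadjusted p were 9 without a filter, 9 in TPM and 15 with sample weights, when 20.6%, 36.2% and 67.1% of all genes were. Those lower were 16, 11 and 18 there, beside 4.77%, 4.9% and 20.4% of all genes. Members with every MI mouse above every sham mouse, not the same gene in each setting, numbered 1 without a filter, with a filter on the mean, with median log-ratio scaling and with quantile normalization, when 12% to 17.2% of all genes were above, and members below were 4 with quantile normalization, beside 15% of all genes. With 1 mouse left out, the genes ranged from 0 to 8195, members higher from 1 to 13 and lower from 4 (without MI replicate 1 or 3) to 18, members above from 0 to 12 and below from 7 to 18. The most in each case were without MI replicate 2, where 58.8% of all genes were higher, 15.5% lower, 61.9% above and 16.9% below. In the other such fits 8.33% to 17.5% of all genes were higher, 4.68% to 7.32% lower, 16.9% to 19.9% above and 9.94% to 11.1% below. Same-numbered mice did not deviate together (correlations 0.0739, -0.0163 and -0.0802), and with the replicate block 0 genes passed, with 6 members higher and 3 lower at an unadjusted p, beside 15.5% and 4.92% of all genes. In that pairing the ratio of Slc2a1 to Slc2a4 differed by 1.57. Relative to the median gene, Hk1 turned to 0.141 without a filter, 0.006 with quantile normalization and 0.481 with sample weights, and ranged from -0.249 to 0.165 with a mouse left out. Tpi1 turned to 0.071 without a filter and 0.133 with sample weights and ranged from -0.197 to 0.070, and Pgk1 turned to 0.126, 0.173 and, with quantile normalization, 0.044 and ranged from -0.125 to 0.044. Ldha turned to 0.087 without a filter and 0.042 with sample weights. With a mouse left out, Pdk4 ranged from -0.051 (without MI replicate 2) to 0.918 and Taldo1 from -0.016 (without MI replicate 1) to 0.176. Of 108 ratios recomputed, 0 changed sign, but with a pseudocount of 0.1 Pfkp to Pfkm overlapped between groups. Aldoc rested on at most 35 fragments a library. The causes were not tested.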

Other observations

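Some further glucose genes outside the members, picked after their values were seen, differed between MI mice 1 and 3 and the sham mice. Fbp2, the fructose-bisphosphatase of muscle, measured 17.7 to 21.8 FPKM in the sham mice and 4.19, 17.9 and 5.25 in MI mice 1, 2 and 3, a log2 difference of -1.51 relative to the median gene (adjusted p 0.108, limma), or -2.21 without MI mouse 2 (adjusted p 1.42e-05). Sord, which makes fructose from sorbitol, was at 54.9 to 59.7 FPKM against 23.9, 55.5 and 28.5, a difference of -0.99 (adjusted p 0.108), or -1.46 without MI mouse 2 (adjusted p 3.52e-05). In both, MI mouse 2 was inside the sham range. Pdk3, a kinase of pyruvate dehydrogenase too low to be tested, was at 0.486 to 0.851 FPKM against 3.6, 0.742 and 2.97. The transporter Slc2a10, also not tested, was at 0.521 to 0.651 FPKM in the sham mice and at 3.38, 0.71 and 2.46 in the MI mice, so that every MI mouse lay above every sham mouse. H6pd, which starts the pentose phosphate pathway inside the endoplasmic reticulum, was tested and likewise did not overlap, at 7.04 to 8.2 FPKM against 19.4, 8.63 and 15.9, a difference of 0.58 relative to the median gene (adjusted p 0.108), or 0.78 without MI mouse 2 (adjusted p 7.41e-05). Of the 5 tested pentose phosphate genes outside the members, only H6pd and Rpe (0.32) lay above the median gene, while Pgls (-0.12), Rpia (-0.16) and Rbks (-0.02) lay below it, and the median was -0.02.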
